A study of Homo sapiens with 24 samples.

Results

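HEK293A cells without the kinases LATS1 and LATS2, grown on a soft gel, were set against wild-type (WT) HEK293A cells on a stiff gel. The question was which genes LATS loss on soft matrix took beyond, to or short of the level of WT cells on stiff matrix. A gene entered the comparison where its FPKM (fragments per kilobase of transcript, scaled to library depth), summed over the entries that share its symbol, was at least 1 in 3 or more of the 6 libraries. This held for 14332 of 58174 genes. Among them, 12977 reached 1 FPKM in all 6 libraries, 177 passed only through the 3 LATS-null libraries and 108 only through the 3 WT libraries. Genes of those last 2 kinds had to differ in order to pass.

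Each group held 3 libraries, called biological replicates in the design text. The group under study was the LATS1/2-dKO line (LATS dKO) on a 1 kPa gel, and it was compared with WT on a 40 kPa gel, the stiff one. WT on 1 kPa, the soft gel, gave the starting level. HEK293A is a line from human embryonic kidney. All cells had fibronectin under them, grew in DMEM with 10% FBS and antibiotics and received nothing else. The labels give neither the editing method nor the number of clones behind the line, so LATS loss and other properties of that line cannot be told apart. The comparison changes genotype and stiffness together, and for that reason the differences LATS dKO 1 kPa minus WT 1 kPa (genotype on soft gel) and WT 40 kPa minus WT 1 kPa (stiffness in WT) stand beside it. The other genotypes of the series, RAP2A/B/C-tKO and YAP/TAZ-dKO, enter only through the shared estimate of the spread.

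LATS1 and LATS2 are the last kinases of the Hippo pathway. They phosphorylate the coactivators YAP and TAZ, which keeps them out of the nucleus, and without that mark YAP and TAZ bind TEAD factors on DNA and switch on targets such as CTGF and CYR61. A stiff matrix, sensed through adhesions and the actin cytoskeleton, is known to bring YAP and TAZ into the nucleus, and a soft one to keep them out.

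By the deposited confidence intervals, the libraries held 25.24 to 32.19 M fragments in LATS dKO on 1 kPa, 32.5 to 42.21 M in WT on 40 kPa and 26.27 to 35.08 M in WT on 1 kPa. Among marker genes of other cell types, 0 of 9 measured endothelial markers and 1 of 12 immune markers passed the filter, the T-cell gene CD3E and the endothelial claudin CLDN5 were listed at 0 in all 9 libraries, and the summed level of the endothelial list was 1.24 to 1.41 FPKM in LATS dKO on 1 kPa, 0.916 to 1.05 FPKM in WT on 40 kPa and 0.621 to 1.17 FPKM in WT on 1 kPa. Of 19 epithelial markers 8 passed, with KRT8 and KRT18 high and the cadherin CDH1 never above 0.437 FPKM, and 4 of 14 kidney, 10 of 17 fibroblast and mesenchymal and 7 of 16 neuronal markers passed, with VIM at 221 ± 2.87 FPKM in LATS dKO on 1 kPa and 222 ± 6.88 FPKM in WT on 40 kPa. LATS dKO 40 kPa replicate 1, which is not among the 6 libraries, stood apart by a rank correlation of -0.653 between its deviations and gene GC content.

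The edited genes were examined first. LATS1 had 4.97, 5.04 and 5.53 FPKM in the 3 LATS dKO libraries on 1 kPa, against 12.1, 12.3 and 12.4 FPKM in WT on 40 kPa and 11.8, 13.0 and 13.9 FPKM in WT on 1 kPa. It fell by 1.10 on the log2(FPKM + 1) scale (SE 0.078, limma adjusted p 4.7e-09). LATS2 had 3.24, 2.94 and 3.38 FPKM in LATS dKO on 1 kPa, 2.69, 2.09 and 3.56 FPKM in WT on 40 kPa and 2.32, 2.3996 and 1.74 FPKM in WT on 1 kPa. The LATS2 ranges overlapped, and its log2 difference of 0.17 (95% interval -0.25 to 0.58) did not pass the test. LATS2 is itself a YAP and TAZ target, and RNA of an edited gene can persist, so its level checks the label no further.

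Against stiff WT, 3096 genes were called, 21.6% of those tested. A gene was called where limma's Benjamini-Hochberg adjusted p was below 0.05. Of these, 1782 (12.4%) were higher in LATS dKO on 1 kPa and 1314 (9.17%) were lower. A change of at least 2-fold on the log2(FPKM + 1) scale was reached by 225 called genes (1.57%), by 162 (1.13%) that were higher and by 63 (0.44%) that were lower. The ranges of the 3 and 3 libraries did not overlap for 7123 genes (49.7%), of which 3974 (27.7%) were higher and 3149 (22%) lower. Between LATS dKO and WT on 1 kPa, 3356 genes (23.4%) were called, 1660 (11.6%) higher and 1696 (11.8%) lower in LATS dKO. The stiffness of the gel gave far fewer calls in WT, 158 genes (1.1%), of which 51 (0.356%) were higher and 107 (0.747%) lower on 40 kPa. Without LATS dKO 40 kPa replicate 1 and RAP2 tKO 40 kPa replicate 3, the libraries most skewed in GC, 2798 genes were called higher and 2216 lower in LATS dKO on 1 kPa against WT on 40 kPa.

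The genes that WT raised most on the stiff gel stood far above that level in soft LATS dKO cells. CTGF and CYR61, secreted matricellular proteins also known as CCN2 and CCN1, are the classical readouts of YAP and TAZ. CTGF (chr6:132269316-132272513, hg19) had 67.9, 70.2 and 74.0 FPKM in LATS dKO on 1 kPa, against 22.5, 23.4 and 21.7 FPKM in WT on 40 kPa and 6.97, 6.29 and 6.38 FPKM in WT on 1 kPa. The 3 groups did not overlap, and the lowest LATS dKO library lay above every stiff WT library. The difference LATS dKO 1 kPa minus WT 40 kPa was 1.61 (SE 0.055, adjusted p 9.5e-14), about as large as the stiffness difference in WT of 1.64 (SE 0.055). CYR61 (chr1:86046444-86049645) had 118, 121 and 130.1 FPKM in LATS dKO on 1 kPa, against 29.1, 33.0 and 29.4 FPKM in WT on 40 kPa and 13.8, 15.6 and 15.1 FPKM in WT on 1 kPa. Its difference from stiff WT was 1.98 (SE 0.088, adjusted p 6.7e-12), beside 0.99 for stiffness in WT.

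ANKRD1, an ankyrin repeat protein of muscle and of mechanically loaded cells, showed the widest gap among the stiffness genes. ANKRD1 (chr10:92671853-92681033) had 38.7, 34.4 and 36.6 FPKM in LATS dKO on 1 kPa, against 4.06, 3.94 and 4.05 FPKM in WT on 40 kPa and 1.13, 0.651 and 0.853 FPKM in WT on 1 kPa. LATS dKO cells exceeded stiff WT by 2.90 (SE 0.096, adjusted p 8.0e-14), while stiffness alone moved WT by 1.43. A pair of genes that feed back on the pathway followed. AMOTL2 (chr3:134074716-134094321), an angiomotin that binds YAP and holds it outside the nucleus, had 62.8, 67.3 and 66.6 FPKM in LATS dKO on 1 kPa, 25.04, 27.5 and 23.6 FPKM in WT on 40 kPa and 9.65, 10.6 and 7.28 FPKM in WT on 1 kPa. AJUBA (chr14:23440383-23451851), a LIM protein that binds and restrains LATS, had 66.5, 66.1 and 71.1 FPKM in LATS dKO on 1 kPa, 13.8, 16.6 and 16.7 FPKM in WT on 40 kPa and 7.21, 6.28 and 7.198 FPKM in WT on 1 kPa. Both were without overlap between the groups, with differences from stiff WT of 1.34 (SE 0.19, adjusted p 4.0e-05) for AMOTL2 and 2.05 (SE 0.12, adjusted p 7.1e-10) for AJUBA. The calls of these 5 genes held in each of 17 other settings of the processing.

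**Figure D1:**
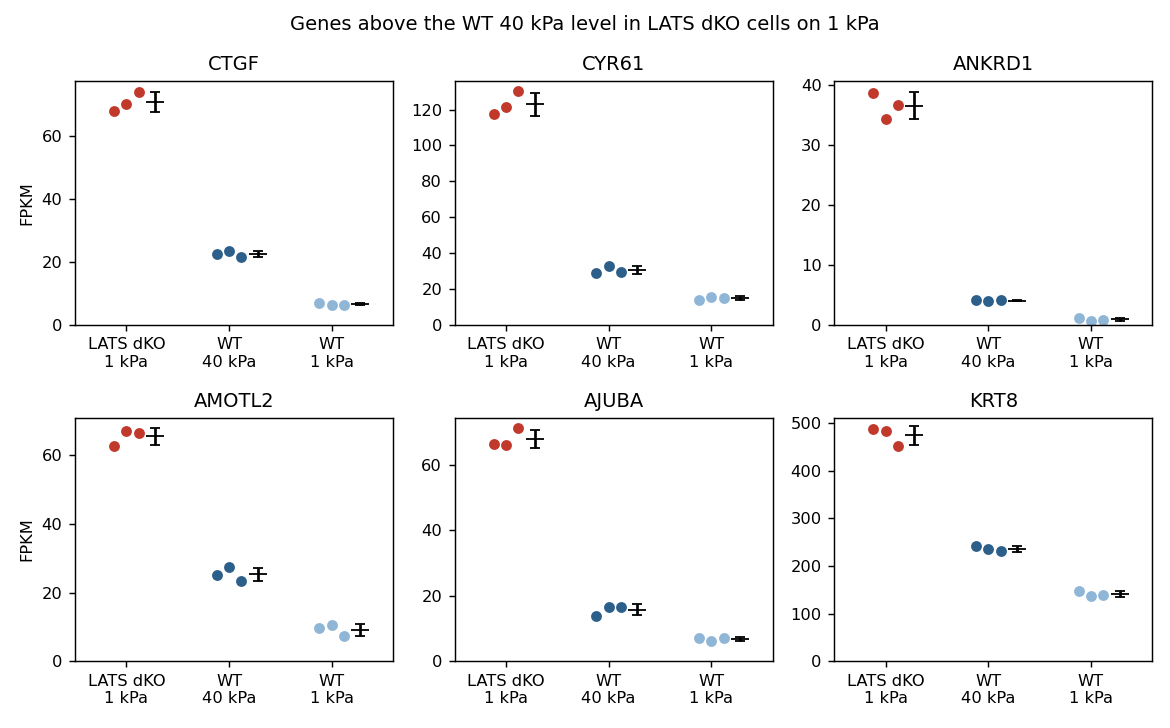
FPKM of CTGF, CYR61, ANKRD1, AMOTL2, AJUBA and KRT8 in LATS dKO on 1 kPa, WT on 40 kPa and WT on 1 kPa. Points are the 3 libraries of a group and the bar beside them is the mean with its SD (n = 3). In all 6 genes every LATS dKO library lies above every stiff WT library, and every stiff WT library above every soft WT library.

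Promoter sequence was looked up for these genes because TEAD factors, the DNA-binding partners of YAP and TAZ, recognise the core GGAATG. The windows hold the 250 bases before the gene start as RefSeq gives it on GRCh38.p14, a different build from the hg19 coordinates of the expression values, written 5′ to 3′ on the gene's strand. Capitals mark GGAATG or its reverse complement CATTCC. Windows were found for 104 of the 143 genes named by the rule, and none for CYR61.
CTGF (chr6:131951373-131951622, minus strand): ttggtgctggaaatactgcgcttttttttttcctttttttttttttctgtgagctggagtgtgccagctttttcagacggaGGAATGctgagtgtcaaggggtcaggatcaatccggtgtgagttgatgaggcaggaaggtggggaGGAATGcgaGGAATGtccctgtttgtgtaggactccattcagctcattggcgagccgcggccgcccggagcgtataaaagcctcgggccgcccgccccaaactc
ANKRD1 (chr10:90921088-90921337, minus strand): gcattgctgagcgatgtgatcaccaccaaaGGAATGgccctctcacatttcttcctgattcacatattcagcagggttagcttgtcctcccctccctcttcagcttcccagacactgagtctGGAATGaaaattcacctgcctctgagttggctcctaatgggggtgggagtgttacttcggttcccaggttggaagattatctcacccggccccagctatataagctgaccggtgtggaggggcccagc
AJUBA (chr14:22976843-22977092, minus strand): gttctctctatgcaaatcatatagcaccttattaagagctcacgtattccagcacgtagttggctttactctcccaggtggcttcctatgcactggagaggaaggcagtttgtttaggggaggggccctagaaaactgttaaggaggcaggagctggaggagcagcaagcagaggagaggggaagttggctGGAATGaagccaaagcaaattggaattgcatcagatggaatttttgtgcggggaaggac
AMOTL2 (chr3:134374448-134374697, minus strand): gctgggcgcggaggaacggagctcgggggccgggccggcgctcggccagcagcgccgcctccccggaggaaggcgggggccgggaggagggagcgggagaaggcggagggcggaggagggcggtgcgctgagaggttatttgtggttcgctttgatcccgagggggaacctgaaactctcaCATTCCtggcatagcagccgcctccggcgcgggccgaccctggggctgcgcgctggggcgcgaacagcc
WTIP (chr19:34481508-34481757, plus strand): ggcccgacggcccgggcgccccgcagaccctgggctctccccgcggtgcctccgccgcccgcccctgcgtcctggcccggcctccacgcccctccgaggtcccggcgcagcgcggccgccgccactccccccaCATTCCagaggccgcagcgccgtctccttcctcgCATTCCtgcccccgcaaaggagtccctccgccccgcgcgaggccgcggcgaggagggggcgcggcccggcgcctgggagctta

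The CTGF window holds 3 copies, which begin 169, 104 and 95 bases before the gene start. ANKRD1 holds 2 copies, 220 and 128 bases before the start, and 1 match to TGANTCA, the motif of AP-1. WTIP, a LIM protein related to AJUBA, was named through the Hippo list, is not among the genes above and holds 2 copies in CATTCC form. AJUBA and AMOTL2 hold 1 copy in the window shown and none in the window of another start. Searched on both strands, at least 1 copy was in 11.9% of all 35116 windows of this length, at least 2 in 0.94% and at least 3 in 0.0826%, and 6.57% held TGANTCA. Of the YAP, TAZ and TEAD signature described next, 7 of the 14 genes with a window had at least 1 copy. Such matches describe letters only, and signature genes with no match rose as well, MYOF and IGFBP3 among them.

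The signature, a list of known YAP, TAZ and TEAD targets, moved in 1 direction against stiff WT where it moved. Of 22 genes 20 passed the filter. Of these, 15 were called higher in LATS dKO on 1 kPa than in WT on 40 kPa, 0 lower, and 5 did not pass the test. The shares over all genes tested were 12.4% called higher and 9.17% called lower. IGFBP3, NUAK2 and TGFB2 passed the filter through the LATS dKO libraries alone and so had to be higher; without them 12 of 17 were called higher and 0 lower, with a median of 0.54. The list's median log2 difference was 0.58, beside 0.03 over all genes tested, and the list's summed level was 483 to 504 FPKM in LATS dKO on 1 kPa, 219.8 to 234 FPKM in WT on 40 kPa and 166 to 172 FPKM in WT on 1 kPa. Compared with WT on 1 kPa, 13 of the 20 were called higher in LATS dKO on 1 kPa and 1 lower. Over all genes tested, 11.6% and 11.8% were. Among the members called against stiff WT, 6 rose at least 2-fold: ANKRD1, CYR61, CTGF, TGFB2, AMOTL2 and MYOF. TGFB2, a ligand of the TGF-beta family, had 3.17, 4.23 and 2.57 FPKM in LATS dKO on 1 kPa, against 0.831, 0.591 and 0.398 FPKM in WT on 40 kPa. In WT it did not respond to the gel, at 0.743, 0.545 and 0.527 FPKM on 1 kPa and a stiffness difference of -0.0044 (95% interval -0.34 to 0.33). MYOF, a membrane repair protein, had 6.02, 5.61 and 5.89 FPKM in LATS dKO on 1 kPa, 1.70, 2.73 and 1.62 FPKM in WT on 40 kPa and 1.27, 1.12 and 1.54 FPKM in WT on 1 kPa.

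IGFBP3, which binds insulin-like growth factors, averaged 1.41 ± 0.0905 FPKM in LATS dKO on 1 kPa and 0.371 ± 0.0982 FPKM in WT on 40 kPa, a difference of 0.81. The phosphatase PTPN14, itself a binder of YAP, averaged 13.8 ± 1.04 FPKM in LATS dKO on 1 kPa and 8.74 ± 1.23 FPKM in WT on 40 kPa, a difference of 0.61. Smaller rises were called for NUAK2 (0.46), a kinase of the AMPK family, for GADD45A (0.36), a stress protein, and for FJX1 (0.32), and FJX1 lost its call once each gene was centred on its chromosome neighbours (adjusted p 0.0537). CRIM1 (0.87), ARHGEF17 (0.73), CCDC80 (0.54) and F3 (0.51) each lost the call without at least 1 of the 6 libraries, where the adjusted p reached 0.0543 for CRIM1, 0.0897 for ARHGEF17, 0.0634 for CCDC80 and 0.136 for F3. In 5 of the 15 (GADD45A, F3, IGFBP3, CCDC80 and TGFB2) the mean log2(FPKM + 1) in WT was lower on 40 than on 1 kPa, without a call. Of these, GADD45A averaged 9.99 ± 0.799 FPKM on 40 kPa and 12.4 ± 0.598 FPKM on 1 kPa, and F3 1.37 ± 0.531 FPKM on 40 kPa and 2.16 ± 0.525 FPKM on 1 kPa, the widest such gaps. LATS2, ASAP1, FOXF2, DOCK5 and RBMS3 did not pass the test, at log2 differences from -0.11 for FOXF2 to 0.39 for RBMS3.

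To place soft LATS dKO cells on the stiffness response of WT, the 158 genes called between WT on 40 and 1 kPa were sorted by their difference from stiff WT. A gene stood beyond the stiff level where LATS dKO differed from it, by a call, in the direction of the WT response. It stood at that level where it was not called and its 95% interval lay within a factor of 1.5 either way, and short of it where the call went the opposite way with the mean between both WT means. Where the call went the opposite way and the mean was no longer between them, the gene stood on the soft WT side. The contrasts share libraries: a stiff WT mean that is high by chance both brings a gene into the list and places LATS dKO below it. The counts are therefore a description without a test.

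Among the 51 genes that WT raised on 40 kPa, soft LATS dKO cells stood beyond the stiff level for 18 (35.3%). They stood at it for 16, short of it for 7 and on the soft WT side for 10. The share called above stiff WT over all genes tested was 12.4%. Beside CTGF, CYR61, ANKRD1, AMOTL2 and AJUBA, the 18 held CNN2, KRT8, KRT18, GPRC5A, AP1M2, S100A10, LASP1, SDC2, TNFRSF21, VARS, ANKRD33B, GDF6 and AC107016.2. Of the 107 genes that WT lowered on 40 kPa, soft LATS dKO cells stood beyond the stiff level for 12 (11.2%). This was near the 9.17% called below stiff WT over all genes tested. They stood at the stiff level for 50, short of it for 20 and on the soft WT side for 22, and 3 could not be placed. These lists depend on single stiff libraries. Without WT 40 kPa replicate 1, 2 or 3 only 22, 18 or 27 genes were called higher on 40 kPa in WT, and of these 11, 12 or 14 stood beyond. The lower genes numbered 46, 43 or 50 without those replicates, with 6, 7 or 7 beyond. Without LATS dKO 1 kPa replicate 3, 11 raised genes in place of 17 were short of the stiff level or on the soft WT side. Without the GC-skewed pair of libraries the lists grew to 379 and 637 genes, with 83 and 91 beyond.

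CNN2, a calponin that binds actin, had 55.2, 55.7 and 59.9 FPKM in LATS dKO on 1 kPa, against 16.5, 15.9 and 19.9 FPKM in WT on 40 kPa and 11.9, 10.7 and 10.7 FPKM in WT on 1 kPa, and its difference from stiff WT was 1.66 (adjusted p 5.2e-08). KRT8 and KRT18 are the partner keratins of simple epithelia. KRT8 had 487, 484 and 452 FPKM in LATS dKO on 1 kPa, against 243, 235 and 231 FPKM in WT on 40 kPa and 148, 136 and 139 FPKM in WT on 1 kPa. KRT18 had 441, 451 and 427 FPKM in LATS dKO on 1 kPa, against 242, 235 and 226 FPKM in WT on 40 kPa and 147, 135 and 149.7 FPKM in WT on 1 kPa. The levels of both were stepwise in the 3 groups without overlap, with differences from stiff WT of 1.00 (SE 0.065, adjusted p 1.5e-09) for KRT8 and 0.90 (SE 0.062, adjusted p 3.4e-09) for KRT18. Both keratins have processed copies in the genome that can share fragments. Outside the naming rule, and chosen after their values were seen, AP1M2, a clathrin adaptor subunit of epithelial cells, averaged 91.0 ± 8.70 FPKM in LATS dKO on 1 kPa, 21.8 ± 3.04 FPKM in WT on 40 kPa and 12.8 ± 0.554 FPKM in WT on 1 kPa, and the receptor GPRC5A averaged 32.4 ± 1.39, 6.14 ± 0.974 and 3.43 ± 0.397 FPKM in the same groups.

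Genes at the stiff level had smaller responses in WT. BCL2L1, which encodes the survival protein BCL-XL, had 22.2, 23.9 and 23.0 FPKM in LATS dKO on 1 kPa, 22.2, 21.7 and 21.1 FPKM in WT on 40 kPa and 16.5, 16.9 and 17.7 FPKM in WT on 1 kPa. Here LATS dKO overlapped stiff WT and lay above every soft WT library, and the difference from stiff WT was 0.082 (95% interval -0.073 to 0.24). Set against its neighbours on chromosome 20, BCL2L1 was called above stiff WT (0.40, adjusted p 0.00048). RBM19, an RNA-binding protein of ribosome assembly, had 42.3, 42.5 and 43.1 FPKM in LATS dKO on 1 kPa, 44.5, 42.1 and 40.9 FPKM in WT on 40 kPa and 31.3, 33.8 and 34.1 FPKM in WT on 1 kPa. DUSP14, a dual-specificity phosphatase, averaged 37.5 ± 0.224 FPKM in LATS dKO on 1 kPa, 35.4 ± 2.09 FPKM in WT on 40 kPa and 28.7 ± 1.65 FPKM in WT on 1 kPa. The receptor VIPR1 averaged 7.79 ± 0.372, 8.47 ± 0.849 and 5.28 ± 0.805 FPKM in these groups, and the zinc finger gene ZBTB9 averaged 18.2 ± 0.611, 21.0 ± 0.964 and 16.2 ± 0.915 FPKM. For ZBTB9 the LATS dKO libraries lay below all stiff WT libraries without a call (adjusted p 0.098), and a call was made with the 6 libraries fitted alone (adjusted p 0.027).

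SMAD7, the inhibitory SMAD that dampens TGF-beta signals, stood short of the stiff level. SMAD7 had 21.4, 22.5 and 22.4 FPKM in LATS dKO on 1 kPa, 29.9, 31.4 and 26.8 FPKM in WT on 40 kPa and 20.7, 17.4 and 17.6 FPKM in WT on 1 kPa. The LATS dKO libraries were below every stiff library and above every soft WT library, at a difference from stiff WT of -0.39 (SE 0.089, adjusted p 0.0034). FAM89A showed 18.5, 18.7 and 18.5 FPKM in LATS dKO on 1 kPa, 24.3, 24.4 and 21.9 FPKM in WT on 40 kPa and 18.1, 18.6 and 19.0 FPKM in WT on 1 kPa, so that LATS dKO lay within the soft WT range. GZF1, YRDC and NOL6 were also short, at differences from stiff WT of -0.32, -0.19 and -0.14, but each lost the call on leaving out single libraries (highest adjusted p 0.189 for NOL6 over all settings) and after centring on chromosome neighbours (adjusted p up to 0.769 for GZF1 and 0.834 for YRDC).

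EMILIN2, a glycoprotein of elastic matrix, went past the soft WT level. EMILIN2 had 5.46, 4.99 and 5.14 FPKM in LATS dKO on 1 kPa, against 13.2, 12.2 and 11.7 FPKM in WT on 40 kPa and 7.45, 7.33 and 7.05 FPKM in WT on 1 kPa. The LATS dKO libraries were the lowest of the 9, with a difference of -1.10 from stiff WT (adjusted p 2.5e-06) and -0.42 from soft WT (adjusted p 0.02). PDIA4 and P4HB, which form and rearrange disulfide bonds in the endoplasmic reticulum, stayed near soft WT. PDIA4 had 94.5, 98.2 and 91.3 FPKM in LATS dKO on 1 kPa, 119.7, 119 and 122 FPKM in WT on 40 kPa and 99.6, 96.6 and 93.4 FPKM in WT on 1 kPa. P4HB averaged 534 ± 14.3 FPKM in LATS dKO on 1 kPa, 629 ± 9.15 FPKM in WT on 40 kPa and 534 ± 14.8 FPKM in WT on 1 kPa, and lost its call with GC correction (highest adjusted p 0.345 over all settings). The lipid transporter MFSD2A averaged 9.89 ± 1.05, 14.1 ± 1.96 and 10.3 ± 0.334 FPKM in the same order of groups, and the tubulin TUBA1B, whose copies are near-identical, 601 ± 15.6, 750.1 ± 33.1 and 620.4 ± 31.9 FPKM. TUBA1B lost its call on centring on chromosome neighbours (adjusted p 0.0507).

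**Figure D2:**
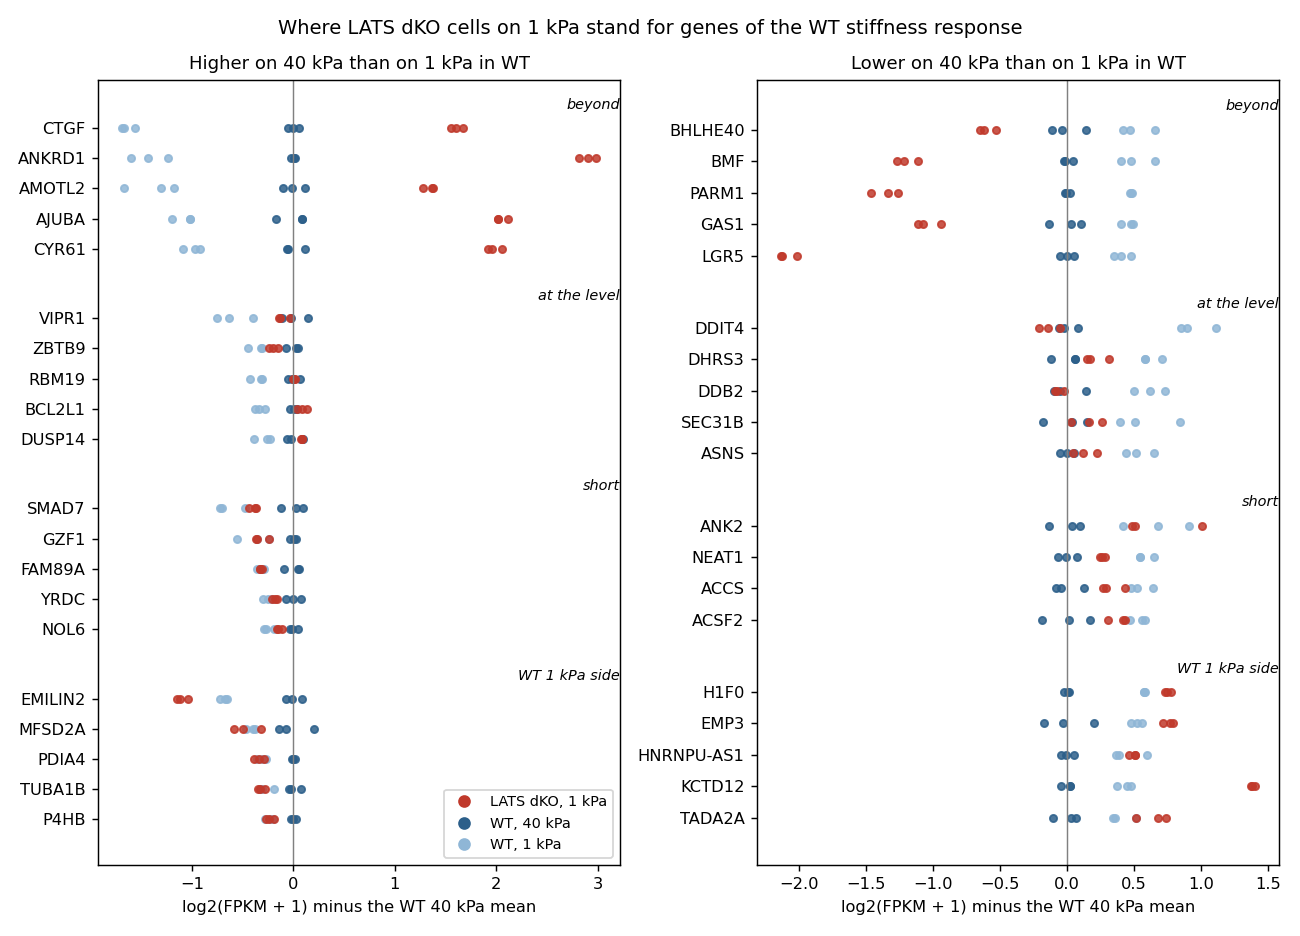
Each library's log2(FPKM + 1) minus the WT 40 kPa mean, for up to 5 genes of each place among genes that WT raised (left) or lowered (right) on 40 kPa. Points are single libraries of LATS dKO on 1 kPa, WT on 40 kPa and WT on 1 kPa, and the line at 0 is stiff WT. CTGF, ANKRD1, AMOTL2, AJUBA and CYR61 in LATS dKO lie on the far side of that line from soft WT, and EMILIN2 and KCTD12 lie past soft WT.

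Of the 107 genes that WT lowered on the stiff gel, 12 (11.2%) were lower still in soft LATS dKO cells. That share is near the 9.17% called lower over all genes tested. LGR5, a receptor for R-spondins in Wnt signalling, had 0.350, 0.343 and 0.462 FPKM in LATS dKO on 1 kPa, against 4.90, 4.68 and 5.10 FPKM in WT on 40 kPa and 6.50, 6.80 and 7.18 FPKM in WT on 1 kPa. LATS dKO was far below both WT groups, at -2.09 from stiff WT (SE 0.079, adjusted p 5.6e-13) beside a stiffness difference of -0.41. LGR5 passed the filter through the WT libraries on 40 kPa alone and so had to be lower, and its test is read as a description of size. BMF, a pro-apoptotic BH3-only protein, had 1.40, 1.31 and 1.58 FPKM in LATS dKO on 1 kPa, 4.49, 4.75 and 4.51 FPKM in WT on 40 kPa and 6.78, 6.38 and 7.81 FPKM in WT on 1 kPa. PARM1, a mucin-like membrane protein, had 1.33, 1.45 and 1.14 FPKM in LATS dKO on 1 kPa, 4.85, 4.80 and 4.96 FPKM in WT on 40 kPa and 7.16, 7.12 and 7.22 FPKM in WT on 1 kPa. GAS1, a co-receptor for Hedgehog ligands, averaged 1.91 ± 0.179 FPKM in LATS dKO on 1 kPa, 4.996 ± 0.496 FPKM in WT on 40 kPa and 7.22 ± 0.276 FPKM in WT on 1 kPa, and the transcription repressor BHLHE40 2.50 ± 0.148, 4.31 ± 0.480 and 6.59 ± 0.664 FPKM. All 5 were without overlap between the 3 groups, with differences from stiff WT between -2.09 (LGR5) and -0.60 (BHLHE40).

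At the stiff level stood DDIT4, an inhibitor of mTORC1 that stress induces. DDIT4 had 4.02, 4.25 and 4.58 FPKM in LATS dKO on 1 kPa and 5.14, 4.57 and 4.71 FPKM in WT on 40 kPa, against 11.6, 9.48 and 9.81 FPKM in WT on 1 kPa, so both groups lay far below soft WT and overlapped each other. Their difference was -0.14 (95% interval -0.37 to 0.099), while LATS dKO differed from soft WT by -1.09 (SE 0.11, adjusted p 7.0e-07). ASNS, which makes asparagine, had 83.4, 73.4 and 77.2 FPKM in LATS dKO on 1 kPa, 68.5, 73.7 and 71.3 FPKM in WT on 40 kPa and 102, 97.1 and 112 FPKM in WT on 1 kPa. DDB2, which recognises DNA damage, had 29.8, 31.0 and 29.5 FPKM in LATS dKO on 1 kPa, 34.8, 30.3 and 29.4 FPKM in WT on 40 kPa and 48.8, 44.8 and 52.9 FPKM in WT on 1 kPa. The retinal reductase gene DHRS3 averaged 9.48 ± 0.656 FPKM in LATS dKO on 1 kPa, 8.06 ± 0.652 FPKM in WT on 40 kPa and 12.9 ± 0.748 FPKM in WT on 1 kPa, and the COPII coat gene SEC31B 7.40 ± 0.680, 6.57 ± 0.860 and 10.4 ± 1.90 FPKM. DHRS3 was called above stiff WT after GC correction (adjusted p 0.024) and against its chromosome neighbours (adjusted p 0.0016).

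Short of the stiff level were ANK2 and NEAT1. ANK2, an ankyrin that anchors membrane proteins, had 8.28, 12.4 and 8.46 FPKM in LATS dKO on 1 kPa, 6.11, 5.81 and 5.05 FPKM in WT on 40 kPa and 7.88, 9.62 and 11.5 FPKM in WT on 1 kPa, with LATS dKO above stiff WT and inside or above the soft WT range. NEAT1, the long noncoding RNA that builds paraspeckles, had 142, 140.3 and 144 FPKM in LATS dKO on 1 kPa, 124, 117 and 113 FPKM in WT on 40 kPa and 173, 173 and 186 FPKM in WT on 1 kPa. Its LATS dKO libraries sat between both WT groups without overlap, but the call from stiff WT (0.26, adjusted p 0.035) was lost without single libraries, with no filter and after centring on chromosome neighbours (adjusted p up to 0.505). ACCS and ACSF2 were short at 0.33 and 0.38, and ACSF2 lost the call without single libraries, with no filter and on neighbour centring (adjusted p up to 0.15 over all settings).

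The soft WT side held KCTD12, a subunit of GABA-B receptors, with 20.5, 20.1 and 20.02 FPKM in LATS dKO on 1 kPa, 6.85, 7.24 and 7.24 FPKM in WT on 40 kPa and 9.52, 10.0 and 10.3 FPKM in WT on 1 kPa. LATS dKO was the highest group, 1.39 above stiff WT (adjusted p 9.3e-14) and 0.95 above soft WT (adjusted p 2.1e-11). H1F0, a linker histone of slowly dividing cells, had 35.9, 36.6 and 35.4 FPKM in LATS dKO on 1 kPa, 21.2, 21.0 and 20.6 FPKM in WT on 40 kPa and 31.9, 31.6 and 31.6 FPKM in WT on 1 kPa. EMP3, a small membrane protein, had 91.6, 94.97 and 96.5 FPKM in LATS dKO on 1 kPa, 48.9, 54.3 and 63.8 FPKM in WT on 40 kPa and 82.1, 79.9 and 77.3 FPKM in WT on 1 kPa. The histone acetylation adaptor TADA2A averaged 19.1 ± 1.58, 11.8 ± 0.786 and 16.01 ± 1.13 FPKM in these groups. The antisense RNA HNRNPU-AS1 averaged 24.9 ± 0.485, 17.5 ± 0.618 and 24.3 ± 2.22 FPKM, and no source used here names the strand setting of the counting, so reads of HNRNPU and its antisense RNA may be mixed.

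Seen from the other side, 1660 genes were higher in LATS dKO than in WT on the soft gel. Of these 1216 (73.3%) were also above stiff WT, 387 stood at the stiff level, 57 could not be placed and 0 were short. Of the 1696 genes lower in LATS dKO on soft gel, 1039 (61.3%) were below stiff WT too, 500 stood at it, 154 could not be placed and 3 were short, among them NEAT1 and MIR34AHG. Both differences use the same 3 LATS dKO libraries, so a shared direction is built in and these shares are a description; over all genes tested, 12.4% were above stiff WT and 9.17% below it.

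Most of the largest rises over stiff WT were in genes that WT cells hardly expressed on either gel. TNNC1, the troponin C of heart and slow muscle, had 25.2, 26.7 and 27.3 FPKM in LATS dKO on 1 kPa, against 1.03, 2.07 and 1.43 FPKM in WT on 40 kPa, and rose by 3.47 (SE 0.13, adjusted p 3.0e-13). PROK1, a secreted ligand of prokineticin receptors, had 9.87, 10.9 and 9.40 FPKM in LATS dKO on 1 kPa, against 0.171, 0.377 and 0.150 FPKM in WT on 40 kPa, and rose by 3.17 (SE 0.085, adjusted p 1.1e-14). NRG1, a ligand of ErbB receptors, had 5.89, 6.90 and 6.62 FPKM in LATS dKO on 1 kPa, against 0.0406, 0.115 and 0.106 FPKM in WT on 40 kPa, and rose by 2.78. In these genes every LATS dKO library stood above every WT library of either gel, and WT did not differ by stiffness by a call. Several others of the 10 belong to the matrix: COL3A1, a fibrillar collagen, averaged 10.2 ± 1.17 FPKM in LATS dKO on 1 kPa and 0.285 ± 0.134 FPKM in WT on 40 kPa, COL12A1 9.09 ± 0.697 and 0.682 ± 0.260 FPKM, MATN2 13.3 ± 2.01 and 1.56 ± 0.175 FPKM, and EDIL3, a ligand of integrins, 8.35 ± 0.487 and 0.130 ± 0.0323 FPKM. OLFML1 (2.76) and the keratin KRT17 (2.42) completed the 10 with ANKRD1. Log2(FPKM + 1) understates the change of genes with so little RNA in WT. PROK1, NRG1, COL3A1, COL12A1, EDIL3, OLFML1 and KRT17 passed the filter through the LATS dKO libraries alone, so these 7 of the 10 had to differ and their tests are read as a description of size.

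EMC10, a subunit of the membrane protein insertion complex of the endoplasmic reticulum, had the largest fall. EMC10 (chr19:50979657-50994127, hg19) had 0.0813, 0.0624 and 0.111 FPKM in LATS dKO on 1 kPa, against 23.7, 22.8 and 23.2 FPKM in WT on 40 kPa and 36.4, 25.04 and 19.0 FPKM in WT on 1 kPa. It was close to absent in all 3 LATS dKO libraries and fell by 4.48 (SE 0.28, adjusted p 9.5e-10). PLTP, the phospholipid transfer protein, had 0.633, 0.405 and 0.412 FPKM in LATS dKO on 1 kPa, against 10.5, 10.5 and 10.7 FPKM in WT on 40 kPa and 10.8, 9.76 and 9.67 FPKM in WT on 1 kPa. ETV4 and ETV5 are ETS factors of the PEA3 group, known as outputs of fibroblast growth factor signals. ETV4 had 1.57, 1.72 and 2.25 FPKM in LATS dKO on 1 kPa, against 13.8, 15.7 and 14.9 FPKM in WT on 40 kPa and 11.0, 10.6 and 9.41 FPKM in WT on 1 kPa. ETV5 had 1.05, 2.48 and 2.34 FPKM in LATS dKO on 1 kPa, against 12.6, 15.3 and 11.3 FPKM in WT on 40 kPa and 9.76, 10.7 and 10.5 FPKM in WT on 1 kPa. The PEA3 genes were lower than in both WT groups, by -2.48 (SE 0.13) for ETV4 and -2.28 (SE 0.24) for ETV5 from stiff WT, with adjusted p 6.6e-11 and 9.8e-07. The other 6 of the 10 were CGA (-2.40), the alpha chain of glycoprotein hormones, RAMP1 (-2.38), a partner of the CGRP receptor, DMRT3 (-2.07), a transcription factor, BOC (-1.85), a Hedgehog co-receptor, COL14A1 (-1.64), a collagen of fibril surfaces, and GPX3 (-1.46), a secreted peroxidase. EMC10, PLTP and CGA passed the filter through the WT libraries alone and so had to be lower. All calls named in this and the preceding set of 20 held in each of 17 other settings.

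**Figure D3:**
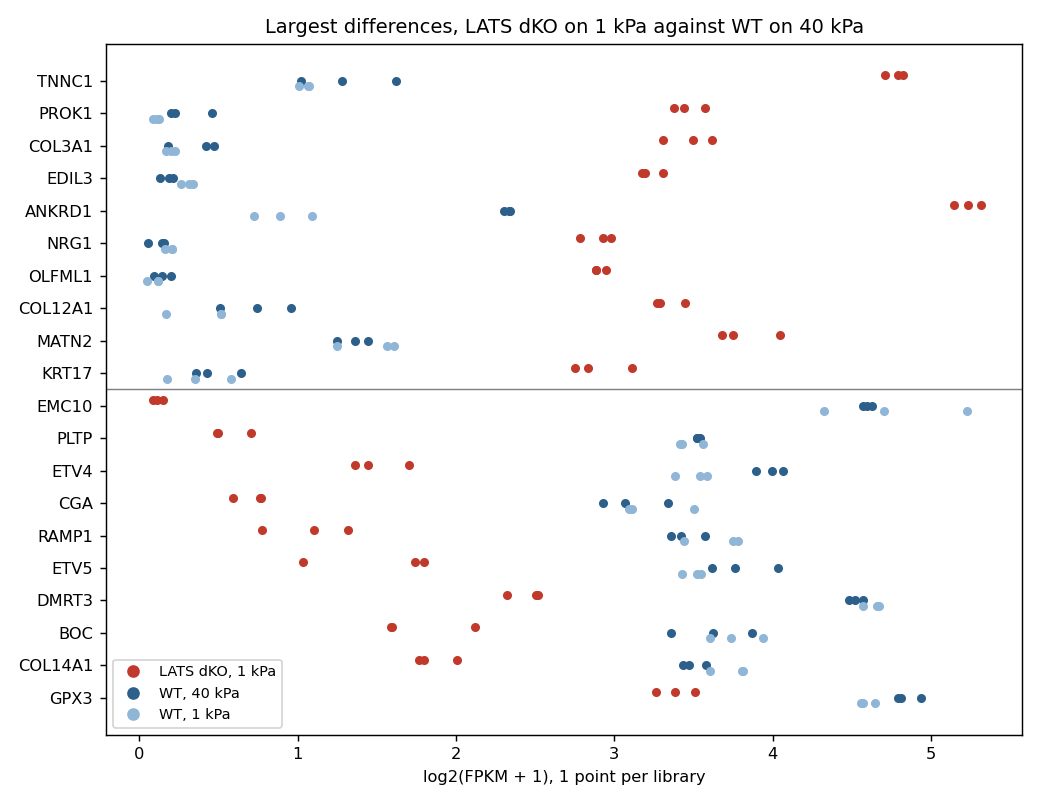
log2(FPKM + 1) in each library for the 10 genes with the largest rise (top) and the 10 with the largest fall (bottom) in LATS dKO on 1 kPa against WT on 40 kPa. Points are single libraries, with WT on 1 kPa drawn slightly lower. Apart from ANKRD1, none of these 20 genes was called between the WT gels.

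The kinases, adaptors and factors of the Hippo pathway had calls in both directions, those lower at a share near that over all genes. Of 40 genes, all tested, 11 were called higher in LATS dKO on 1 kPa than in WT on 40 kPa and 4 lower. Over all genes tested, 12.4% were called higher and 9.17% lower. The median log2 difference of the list was 0.18. YAP1 averaged 31.2 ± 1.14 FPKM in LATS dKO on 1 kPa and 31.6 ± 0.614 FPKM in WT on 40 kPa, and WWTR1, the gene of TAZ, 25.2 ± 0.882 and 26.3 ± 0.685 FPKM, and neither passed the test, with intervals of -0.18 to 0.14 for YAP1 and -0.28 to 0.16 for WWTR1. Of their DNA-binding partners, TEAD1 (0.64), TEAD3 (0.43) and TEAD4 (0.30) rose and TEAD2 fell (-0.23). TEAD1 passed at a limma adjusted p of 1.0e-06, but TEAD3, TEAD4 and TEAD2 only narrowly, at 0.0486, 0.0498 and 0.0455. TEAD1 averaged 32.4 ± 0.120 FPKM in LATS dKO on 1 kPa and 20.4 ± 1.27 FPKM in WT on 40 kPa. WTIP, which acts on LATS like AJUBA, had 12.4, 11.2 and 11.3 FPKM in LATS dKO on 1 kPa, 5.25, 4.75 and 5.14 FPKM in WT on 40 kPa and 3.57, 3.71 and 3.19 FPKM in WT on 1 kPa. AMOT, the founding angiomotin, had 8.18, 8.52 and 7.04 FPKM in LATS dKO on 1 kPa, 2.18, 2.78 and 3.12 FPKM in WT on 40 kPa and 2.09, 2.45 and 3.24 FPKM in WT on 1 kPa. AMOT lies on the X chromosome among genes whose median difference was 0.60, beside its own difference of 1.28. The remaining calls were rises of LIMD1, WWC2, RAP2C and MAP4K5 and falls of STK4, the gene of the MST1 kinase, and TNIK, beside LATS1. RAP2C lies on the X chromosome (median 0.25) and STK4 on chromosome 20 (median -0.255). Centred on chromosome neighbours, the list had 9 called higher and 3 lower, and with median-ratio scaling 9 and 4.

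Targets of SRF and its actin-sensing cofactor MRTF, which encode the contractile cytoskeleton, moved up against stiff WT where they moved. Of 21 genes tested from 25, 11 were higher and 0 lower, with a median of 0.25. Over all genes tested, 12.4% were called higher and 9.17% lower, with a median of 0.03. Relative to WT on 1 kPa, 12 were called higher in LATS dKO and 1 lower, beside 11.6% and 11.8% over all genes tested. TPM1, a tropomyosin, had 209, 228 and 220.4 FPKM in LATS dKO on 1 kPa, against 49.5, 42.1 and 40.5 FPKM in WT on 40 kPa and 38.4, 38.0 and 47.8 FPKM in WT on 1 kPa. It did not respond to stiffness in WT (difference 0.09, 95% interval -0.12 to 0.30), yet lay 2.29 above stiff WT in LATS dKO (SE 0.10, adjusted p 6.7e-12). The LIM protein FHL2 had 26.7, 25.5 and 26.2 FPKM in LATS dKO on 1 kPa, against 15.998, 17.1 and 16.1 FPKM in WT on 40 kPa. FHL1 rose by 0.76, but the median of its X chromosome neighbours was 0.58. FLNA and FLNC, actin-crosslinking filamins, rose by 0.89 and 0.93, and TAGLN, a marker of smooth muscle, by 1.09. FLNA also lies on the X chromosome, where the median over all genes tested was 0.25. ACTB (0.20), VCL (-0.024) and SRF (0.16) did not pass the test.

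Of 37 matrix protein genes tested from 46, 17 were called higher and 3 lower, with a median of 0.36. Over all genes tested, 12.4% were called higher and 9.17% lower. The lower calls of this list and of the integrin list were near or under that share. COL3A1, COL5A2, COL12A1, LAMB3 and THBS1 passed the filter through the LATS dKO libraries alone; without these 5, 12 of 32 were called higher and 3 lower, with a median of 0.30. Centred on chromosome neighbours, the counts were 13 and 5 and the median 0.22. COL5A2, a partner of fibrillar collagens, had 5.16, 5.80 and 3.57 FPKM in LATS dKO on 1 kPa, against 0.615, 0.558 and 0.748 FPKM in WT on 40 kPa. LAMB3, a laminin chain of epithelial basement membrane, had 2.82, 3.19 and 2.90 FPKM in LATS dKO on 1 kPa, against 0.612, 0.427 and 0.527 FPKM in WT on 40 kPa. THBS1, a matricellular glycoprotein, averaged 3.92 ± 0.370 FPKM in LATS dKO on 1 kPa and 0.351 ± 0.367 FPKM in WT on 40 kPa, a difference of 1.90. The 3 that fell were EMILIN2, VCAN (-0.93) and FBLN1 (-0.59). Integrins and focal adhesion genes gave 11 called higher and 2 lower of 33 tested, with a median of 0.14, or 9 and 2 of 31 without ITGB8 and LIMS2, which passed through LATS dKO alone. TNS3, a tensin that links integrins to actin, had 14.8, 15.2 and 16.2 FPKM in LATS dKO on 1 kPa, against 6.10, 6.18 and 5.87 FPKM in WT on 40 kPa. CAV1, the main caveolin, had 53.9, 57.8 and 53.5 FPKM in LATS dKO on 1 kPa, against 35.5, 33.7 and 34.1 FPKM in WT on 40 kPa, and PTRF, the cavin that shapes the same membrane pits, 23.8, 23.8 and 23.4 FPKM in LATS dKO on 1 kPa, against 12.8, 12.9 and 12.7 FPKM in WT on 40 kPa. ITGB8 rose by 0.73 and ITGA1 by 1.09, while ITGB1 (-0.069) and ITGAV (-0.20) did not pass the test.

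Epithelial markers were called higher for 5 of 8 tested genes and lower for 0, with a median of 0.55 and a summed level of 988 to 1041 FPKM in LATS dKO on 1 kPa, 537 to 568 FPKM in WT on 40 kPa and 346 to 365 FPKM in WT on 1 kPa. KRT8 and KRT18 made up 89.0% to 89.8% of that sum in LATS dKO on 1 kPa, 85.2% to 85.6% in WT on 40 kPa and 78.4% to 80.8% in WT on 1 kPa. The claudin CLDN7 averaged 1.98 ± 0.540 FPKM in LATS dKO on 1 kPa and 0.658 ± 0.164 FPKM in WT on 40 kPa, and passed the filter through LATS dKO alone; without it 4 of 7 epithelial markers were called higher and the median was 0.31. The shares over all genes tested were 12.4% called higher and 9.17% called lower. Fibroblast and mesenchymal markers were called higher for 2 and lower for 1 of 10. Their summed levels were 305 to 314 FPKM in LATS dKO on 1 kPa and 287 to 299 FPKM in WT on 40 kPa. LUM, a matrix proteoglycan, had 8.47, 7.92 and 8.12 FPKM in LATS dKO on 1 kPa, against 1.48, 0.499 and 1.01 FPKM in WT on 40 kPa, whereas VIM did not pass the test (221 ± 2.87 FPKM in LATS dKO on 1 kPa, 222 ± 6.88 FPKM in WT on 40 kPa). In these bulk libraries, more cells that express a gene and more RNA per cell cannot be told apart. Of the kidney markers, LRP2, an endocytic receptor of the proximal tubule, rose by 1.24 and LHX1, a factor of early kidney, fell by 0.93. Neuronal markers had 1 call each way, NEFL and SYP. NEFL was lost without single libraries and on neighbour centring (adjusted p up to 0.57). SYP was lost with each library left out, with the replicate block, with GC correction and with no filter. A filter at 5 FPKM removes SYP, which averaged 1.44 FPKM in LATS dKO on 1 kPa and 1.96 FPKM in WT on 40 kPa. The fibroblast, kidney and neuronal counts are too small to set apart from the shares over all genes.

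Signal-responsive lists differed in direction, beside 12.4% called higher and 9.17% called lower over all genes tested. Immediate-early genes and their feedback inhibitors gave 5 called higher and 5 lower of 24 tested. DUSP1, a phosphatase of MAP kinases, had 35.6, 35.5 and 38.3 FPKM in LATS dKO on 1 kPa, against 14.5, 12.5 and 12.6 FPKM in WT on 40 kPa. ATF3, a stress-induced transcription factor, had 54.4, 53.5 and 54.4 FPKM in LATS dKO on 1 kPa, against 25.6, 21.98 and 20.8 FPKM in WT on 40 kPa. SPRY4, an inhibitor of receptor tyrosine kinase signals, went the other way. It had 0.159, 0.149 and 0.284 FPKM in LATS dKO on 1 kPa, against 3.46, 4.35 and 3.68 FPKM in WT on 40 kPa. The difference was -2.01 (SE 0.079, adjusted p 1.0e-12). SPRY4 passed the filter through the WT libraries alone, as did NR4A2 and DUSP5, so these 3 had to be lower. Without these 3 the counts were 5 higher and 2 lower of 21, the lower share near that over all genes. Notch targets and receptors gave 1 called higher and 4 lower of 13, with a median of -0.35; HEY1 averaged 20.3 ± 0.618 FPKM in LATS dKO on 1 kPa and 29.5 ± 0.902 FPKM in WT on 40 kPa, and the ligand DLL1 1.64 ± 0.194 and 3.83 ± 0.365 FPKM. Wnt feedback targets gave 0 higher and 3 lower of 13, led by LGR5, which passed the filter through WT alone, with APCDD1 and LEF1 losing their calls without single libraries, among other settings (adjusted p up to 0.139 and 0.132 over all settings). TGF-beta and SMAD feedback genes gave 2 higher and 3 lower of 18 (1 and 3 of 17 without TGFB2). ID3 (-0.65) and BAMBI (-0.45) fell beside SMAD7. Centred on chromosome neighbours, the counts were 1 and 2, with BAMBI and SMAD7 still called lower and ID3 no longer called. Interferon response genes gave 7 higher and 1 lower of 16, with a median of 0.39, TAP1 at 8.79 ± 0.513 FPKM in LATS dKO on 1 kPa and 5.21 ± 0.106 FPKM in WT on 40 kPa among them.

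Metabolic and growth lists had median differences from stiff WT between -0.08 (glycolysis and hypoxia) and 0.07 (ATF4 response). The shares over all genes tested were 12.4% called higher and 9.17% called lower. Genes of the ATF4 amino acid response gave 7 called higher and 1 lower of 30 tested, with a median of 0.07. Without NUPR1, which passed through LATS dKO alone, the counts were 6 and 1 of 29. From soft WT, 4 of the 30 were called higher and 9 lower in LATS dKO, beside 11.6% and 11.8% over all genes tested. SLC3A2, the heavy chain of amino acid exchangers, had 1532, 1560.2 and 1507 FPKM in LATS dKO on 1 kPa, against 1063, 1146 and 1041 FPKM in WT on 40 kPa. Glycolysis and hypoxia genes gave 3 higher and 5 lower of 25; SLC2A3, a glucose transporter, averaged 18.2 ± 1.94 FPKM in LATS dKO on 1 kPa and 6.24 ± 0.321 FPKM in WT on 40 kPa, and PFKM, the muscle phosphofructokinase, 70.1 ± 1.75 and 108 ± 6.62 FPKM. Cholesterol synthesis gave 4 higher and 5 lower of 23, but 1 and 2 after centring on chromosome neighbours. G1/S genes gave 3 higher and 5 lower of 25, and G2/M genes 1 higher and 4 lower of 24, and both came to 1 and 1 after that centring. PCNA, TPX2 and AURKA, which had fallen by 0.29, 0.28 and 0.33, lie on chromosome 20 and lost their calls there (adjusted p 0.699, 0.894 and 0.495). The cyclin CCND1 was among the genes called higher, at 31.0 ± 0.950 FPKM in LATS dKO on 1 kPa and 18.4 ± 0.301 FPKM in WT on 40 kPa, but with an adjusted p of 0.049, and with median-ratio scaling 0 of the G1/S genes were called higher and 5 lower. Of 20 p53 targets, 2 were higher and 2 lower than in stiff WT, but 2 were called higher and 10 lower than in soft WT. Of 35 ribosomal protein genes, whose copies can share fragments, 4 were higher and 2 lower than in stiff WT.

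**Figure D4:**
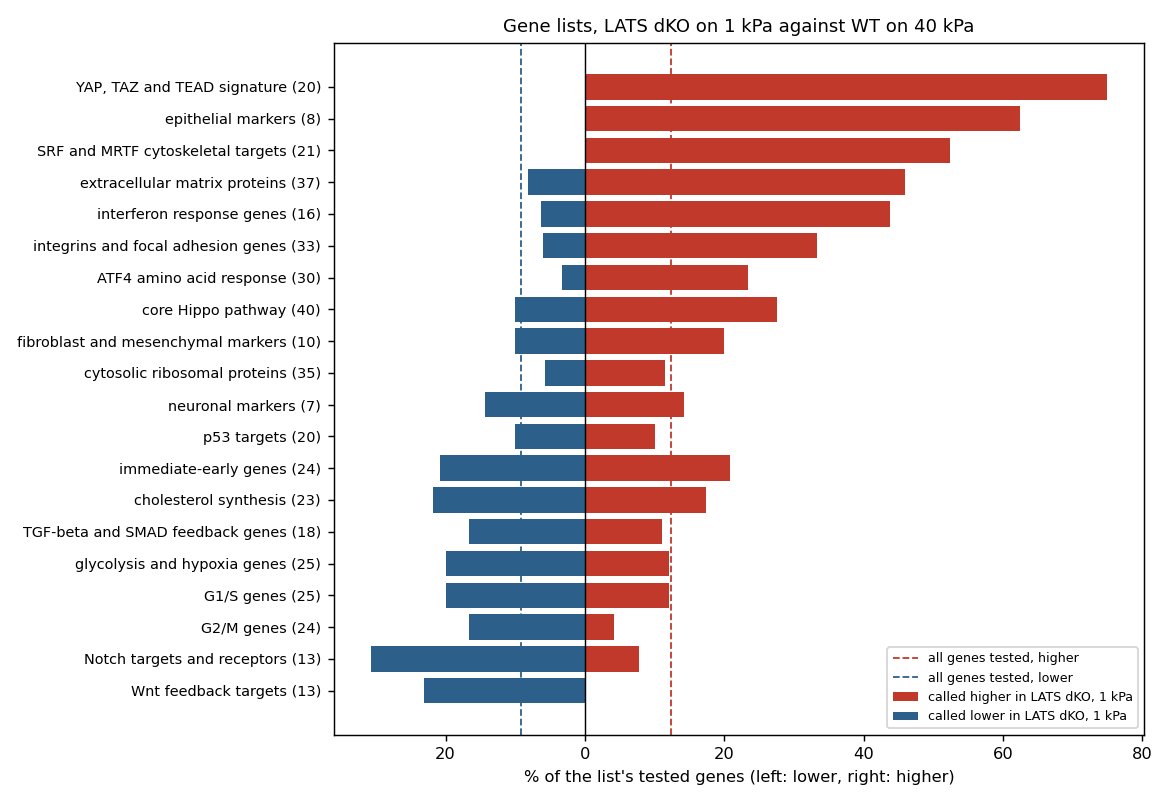
Share of each list's tested genes (number in brackets) called higher (right) or lower (left) in LATS dKO on 1 kPa against WT on 40 kPa. Dashed lines give the shares over all 14332 genes, 12.4% higher and 9.17% lower. The YAP, TAZ and TEAD signature, at 15 of 20, reaches farthest to the right, and the lists with under 5 genes tested are left out.

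Differences between soft LATS dKO and stiff WT also ran in blocks along chromosomes. On chromosome 21 the median over 147 genes was 0.376, and 54.4% of them were called higher. On the X chromosome the median over 461 genes was 0.25 with 42.3% called higher, and on chromosome 8 it was 0.177 over 485 genes with 25.8% called higher. In the other direction, chromosome 20 had a median of -0.255 over 385 genes with 42.6% called lower, and chromosome 9 a median of -0.124 with 27.8% called lower. The same chromosomes stood out between LATS dKO and WT on the soft gel, with medians of 0.312 for chromosome 21 and -0.274 for chromosome 20, and not between the WT gels, with -0.035 and -0.015. Single stretches were shifted more: a window of 50 genes on the X chromosome (107327437 to 123556514, hg19) had a median of 0.634, and 1 at the start of chromosome 8 (14091 to 19709594) had 0.558.

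An alternative, chosen after the data were seen, therefore subtracted from each gene the median of its 50 nearest tested neighbours in each library. It called 2123 genes (1127 higher, 996 lower), of which 1600 were among the 3096 and in the same direction, 51.7% of the 3096 and 75.4% of the 2123. The signature then had 14 called higher and 0 lower, and SRF and MRTF targets 11 and 0. CTGF, CYR61, ANKRD1, AMOTL2, AJUBA, CNN2, KRT8 and KRT18 lie among neighbours whose medians ran from -0.14 for KRT18 to 0.21 for AJUBA, small beside their own differences. FDFT1 (neighbour median 0.53, own difference 0.63), NSDHL (0.51 and 0.38) and RPL10 (0.48 and 0.74) lie in shifted stretches. After the subtraction FDFT1 (adjusted p 0.242) and NSDHL (adjusted p 0.233) were no longer called, and RPL10 was (0.27, adjusted p 0.000345). What lies behind the blocks was not tested.

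**Figure D5:**
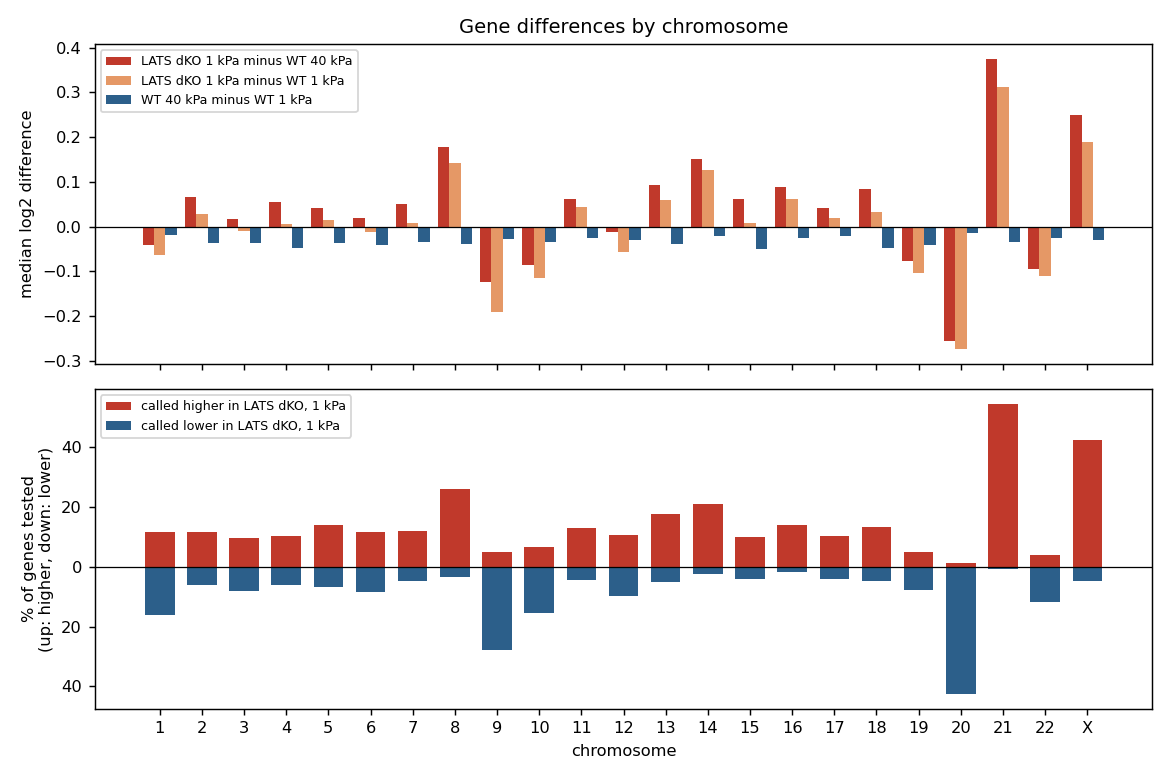
Top: median log2 difference of the tested genes on each chromosome for LATS dKO 1 kPa minus WT 40 kPa, LATS dKO 1 kPa minus WT 1 kPa and WT 40 kPa minus WT 1 kPa. Bottom: percent of tested genes called higher or lower in LATS dKO on 1 kPa against WT on 40 kPa. Chromosomes 21 and X stand out upward and chromosome 20 downward in both differences that involve LATS dKO, and the WT difference stays near 0 on all chromosomes.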

How the data were processed

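RNA of HEK293A cells was profiled in 24 libraries, 3 for each of 4 genotypes on 2 gels. Per the labels' protocols, a TRIzol extraction was followed by a stranded mRNA kit with 2 index sets; the labels do not tie sets to libraries, and no batch could be tested. Per the submitters' processing notes, STAR 2.4.2a and Cufflinks 2.2.1 were used with hg19. The authors deposited FPKM values with confidence bounds, already divided by transcript length and depth; 60350 entries per table carry 58266 symbols, 338 of them on several entries, which were summed, and 92 whose status was neither OK nor low-data in some library were left out. All 37 mitochondrial entries were at 0. Depth was worked out from the width of the deposited intervals of 267 to 342 lowly expressed genes per library.

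Tests ran on log2(FPKM + 1) with limma 3.58.1 in R 4.3.3, with a mean for each of the 8 groups (24 libraries, 16 residual degrees of freedom), a trend of spread on level, two-sided moderated tests and Benjamini-Hochberg adjustment over all 14332 genes. Adjusted p-values are limma's, ± is an SD over n = 3, and intervals are limma's 95% intervals. The design text calls replicates biological without saying whether cultures were separate, so p-values measure the spread between these libraries, which may be technical. The script was tested on simulated data. The genes and the 23 lists were chosen with earlier results of these data known. Named genes were the 10 largest rises and falls (called, without overlap, mean of at least 5 FPKM in the higher group, no short RNAs or clone names), LATS1 and LATS2, the signature, up to 5 genes per place and up to 4 called members per list. Of these, 1 gene is not reported here. Tried alternatives were the pseudocount, the filter, scaling, GC correction, the libraries fitted, the trend, a replicate block and leaving out libraries.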

Additional observations from a re-analysis of the deposited data

How the results depend on the processing

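Of the 143 genes named by the rule, 128 were called, 94 of these held their call and direction in every setting run for them (76 in all 17 and 18, which a filter at 5 FPKM removes, in 16), and 34 lost the call in at least 1; of the 15 not called, 4 were called in some setting. The main counts of 1782 higher and 1314 lower became 2730 and 2132 with the 6 libraries fitted alone, 2798 and 2216 without both GC-skewed libraries (LATS dKO 40 kPa replicate 1 and RAP2 tKO 40 kPa replicate 3), 2349 and 1876 with GC correction, and 1127 and 996 centred on chromosome neighbours; leaving out 1 of the 6 libraries gave 1340 to 1450 higher and 949 to 991 lower. With 2 libraries in a group, the spread comes from all groups. Median-ratio scaling moved the median of all genes from 0.026 to 0.004 and gave 1627 and 1542.

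The places of the WT stiffness genes moved most. Not reached counts genes short of the stiff level or on the soft WT side. For genes higher on 40 kPa in WT, 18 beyond, 16 at and 17 not reached became 47, 64 and 60 with 9 libraries fitted alone, 47, 57 and 52 with GC correction, 83, 159 and 134 without both GC-skewed libraries, 31, 33 and 37 with scaling, 11, 3 and 2 for a stiffness change of at least 0.5, and 33 beyond and 44 at on neighbour centring. Leaving out 1 library gave 11 to 18 beyond, 3 to 15 at and 3 to 14 not reached. For genes lower on 40 kPa, 12, 50 and 42 became 28, 113 and 124 with 9 libraries alone, 41, 157 and 144 with GC correction, 91, 276 and 262 without both GC-skewed libraries, 3, 10 and 13 for a change of at least 0.5, 4 beyond and 27 not reached at a filter of 5 FPKM, and 23 not reached with no filter. Leaving out 1 library gave 6 to 10 beyond, 21 to 46 at and 11 to 32 not reached. The cause was not tested.

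Same-numbered replicates did not deviate together (correlations of -0.0148, -0.0859 and -0.0135 between LATS dKO on 1 kPa and WT on 40 kPa), so the numbers do not pair the samples. A replicate block gave 1733 higher and 1263 lower calls and 11 WT-raised genes not reached; the block with GC correction gave 2313 and 1852 calls, 43 beyond, 47 at and 49 not reached for raised genes, and 39, 143 and 127 for lowered ones.

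Directions turned for 7 named genes: RBM19 came to -0.020 with scaling, -0.092 on neighbour centring and -0.022 to 0.037 on leaving out 1 library, DOCK5 to -0.217 to 0.039 and DDB2 to -0.107 to 0.012 on leaving out 1 library. On neighbour centring, DUSP14 came to -0.005, NOL6 to 0.099, NSDHL to -0.152 and TPX2 to 0.024.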

Other observations

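Genes outside the lists and the naming rule, chosen after their values were seen, gave the following levels. FOLR1, a folate receptor, had 5.27, 5.03 and 5.37 FPKM in LATS dKO on 1 kPa, against 0.857, 0.546 and 0.786 FPKM in WT on 40 kPa and 0.578, 0.798 and 1.06 FPKM in WT on 1 kPa. CRABP2, which carries retinoic acid, had 168, 166 and 154 FPKM in LATS dKO on 1 kPa, against 87.9, 83.3 and 85.5 FPKM in WT on 40 kPa and 112, 108 and 115 FPKM in WT on 1 kPa, and RARB, a retinoic acid receptor, 4.48, 4.51 and 4.38 FPKM in LATS dKO on 1 kPa, against 2.82, 2.52 and 2.41 FPKM in WT on 40 kPa and 3.85, 3.76 and 4.40 FPKM in WT on 1 kPa. Both were lower on the stiff gel in WT and called above stiff WT in soft LATS dKO cells, by 0.92 (adjusted p 1.1e-08) for CRABP2 and 0.61 (adjusted p 2.5e-05) for RARB. HSPA5, the chaperone BiP, stood at the stiff level, with 139, 143 and 142 FPKM in LATS dKO on 1 kPa, 141, 145 and 142 FPKM in WT on 40 kPa and 125, 121 and 122 FPKM in WT on 1 kPa. FOXM1, a transcription factor of mitotic genes, had 98.4, 92.8 and 92.3 FPKM in LATS dKO on 1 kPa, 112, 112 and 109 FPKM in WT on 40 kPa and 91.9, 98.3 and 94.8 FPKM in WT on 1 kPa, so that soft LATS dKO cells lay below every stiff WT library and overlapped soft WT.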
